A study of Homo sapiens with 4 samples.

Results

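Nuclear pore and nuclear transport genes were examined in m6A-seq of HEK293T cells, a human embryonic kidney line, after X-ray exposure. The set was defined by gene symbol alone. It holds the nucleoporins (NUP genes, AAAS, SEH1L, NDC1, POM121, POM121C, GLE1 and TPR), the RAN cycle (RAN, RCC1, RANGAP1, NUTF2 and the RANBP genes), the transport receptors (KPNA, KPNB1, IPO, TNPO, XPO, XPOT and CSE1L) and the mRNA export factors (NXF1, NXT, ALYREF and THOC genes). There were 74 such genes among 14911 genes with a count, and 51 of them passed a minimum of 50 counts as the mean over the libraries, out of 5320 genes that did. The rule takes names and not functions, so RANBP9 and RANBP10, scaffold proteins of a ubiquitin ligase, are in, and pore proteins such as SEC13 and RAE1 are out.

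The 4 libraries comprised 1 input and 1 m6A-IP for each population, the control shRNA cells (shCTL) and the ALKBH5 shRNA cells (shA5). All were polyA RNA of X-ray-treated cells, the methods give a dose of 10 Gy, and unirradiated cells were not analysed here. Which ALKBH5 shRNA was used, the time from exposure to harvest and whether the lines are clones are not given in the sources used here. The question was where transcripts of the transport machinery stand in the m6A landscape of these cells, and whether their m6A or their amount differed with the knockdown of ALKBH5, which removes m6A from RNA. With 1 library per group no difference has a replicate check and no p-value was computed. Intervals are exact 95% intervals from the counts and cover counting error only.

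Nuclear pores are rings of nucleoporins set in the nuclear envelope. An outer ring built from Y-shaped complexes and an inner ring form the scaffold, FG repeat proteins such as NUP62 fill the channel, filaments reach into the cytoplasm and a basket into the nucleus. Importins and exportins carry cargo through the channel, and RAN sets the direction: RCC1 loads it with GTP on chromatin, and RANGAP1 with RANBP1 and RANBP2 triggers hydrolysis outside. Most mRNAs leave by another route, on NXF1 and NXT1, which are recruited by the TREX complex with THOC proteins and ALYREF. m6A is deposited in the nucleus, mainly in the RRACH consensus, of which GGACT is the classical form, far from exon junctions, in long exons and near stop codons.

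Examples of such sites are shown from transcripts toward the ends of the range, since their positions differ. Of the 51 genes above the count minimum, RANBP6 and NXT1 had the highest m6A enrichment. RCC1 was above 0 but not past 1.5-fold, and the other 4 shown are at the lower end. Each example is the GGAC followed by any base other than G that lies nearest to the stop codon on the sense strand of the transcript with the most counts. It is shown 5′ to 3′ in hg38, with the site in capitals and 12 bases on either side. They are matches to letters and were not measured as methylated sites.
RANBP6: atagaatttccaGGACAaacatctttgga
NXT1: cttccgcttccaGGACTgggccagctagt
RCC1: cttattagtcaaGGACAaagaacagagct
CSE1L: tgcaacttcaagGGACAagtattaatagt
NUP155: ttctgagctgatGGACAtaactaagcttt
NUP43: gtaaattcaattGGACAgttgaaaatatg
TNPO1: aatgatgcctagGGACAagaaagaggaac

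These sites differ in where they lie. The RANBP6 site (chr9:6011902-6011906, minus strand) is in the 3′ UTR of a transcript with 1 exon, 389 bases after the last coding base. The NXT1 site (chr20:23354449-23354453, plus strand) is in the coding sequence, 10 bases before the last coding base, in a last exon of 791 bases. In RCC1 (chr1:28537989-28537993, plus strand) it is 13 bases before the last coding base and 160 bases from a junction. At the other end of the range, the NUP155 site (chr5:37301445-37301449, minus strand) is coding, in exon 30 of 35, and 10 bases from a junction. The NUP43 site (chr6:149738700-149738704, minus strand) is coding and 59 bases from a junction. CSE1L (chr20:49096658-49096662, plus strand) and TNPO1 (chr5:72909045-72909049, plus strand), in contrast, have theirs in the 3′ UTR of the last exon, 312 and 339 bases from a junction. A GGAC is in 99.6% of the main transcripts of all genes tested, so its presence does not separate genes.

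Counted over the whole main transcript, RANBP6 holds 9 such sites and NXT1 3, and all of them are more than 150 bases from any exon junction. NUP155 holds 20 with 3 that far from a junction, NUP205 20 with 1, NUP188 28 with 0, CSE1L 7 with 2, and TNPO1 9 with 1. The number of distant sites did not follow enrichment in some genes, which were picked after the values were seen. No correlation with the number of sites was computed. NUP62, which was not enriched, has 9 of 9 that far from a junction, and of depleted genes NDC1 has 9 of 17 and KPNA6 13 of 18. XPO1, enriched, has 4 of 11, and KPNA2, with values above 0, has 0 of 6.

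The m6A enrichment of a gene compares its counts in the IP with those in the input after scaling each library to the same total (CPM). It is given on the log2 scale with 0.5 CPM added to each, so 0 means the same share of both libraries and not an absence of m6A. Genes at least 1.5-fold above or below 0 are called enriched or depleted. Transcripts of the transport machinery were mostly under-represented in the IP. Of the 51 genes, 27 (52.9%) were depleted in shCTL, where 30.3% of all genes tested were, and 27 in shA5, where 31.7% of all genes were. Only 3 (5.88%) were enriched in shCTL, beside 22.5% of all genes, and 3 in shA5, beside 24.3%. With the trend on GC content removed 5 were enriched in shCTL, beside 20.9%, and 6 in shA5, beside 22.4%. The enriched genes were RANBP6, NXT1 and XPO1 in both populations, and 24 of the depleted genes were depleted in both. How many of all genes were called in both populations is not given here.

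The median enrichment of the set was -0.65 in shCTL (order-statistic interval -0.84 to -0.44) and -0.63 in shA5 (-0.92 to -0.42). All genes tested had medians of -0.11 and -0.10. The medians were -1.02 and -1.08 for the 21 genes of the set with 1 listed transcript, of which 14 and 15 were depleted, and -0.52 and -0.53 for the 30 with more, of which 13 and 12 were. Of all genes, 2826 with 1 listed transcript had medians of -0.00 and 0.03, and 758 and 827 of them were depleted. The 2466 with more had medians of -0.22 and -0.23, and 845 and 851 of them were depleted. Between genes of the set the spread was an SD of 0.79 in shCTL and 0.89 in shA5, close to the 0.87 and 0.95 of all genes. The genes are not independent measurements of the set, and some share sequence with other genes.

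**Figure D1:**
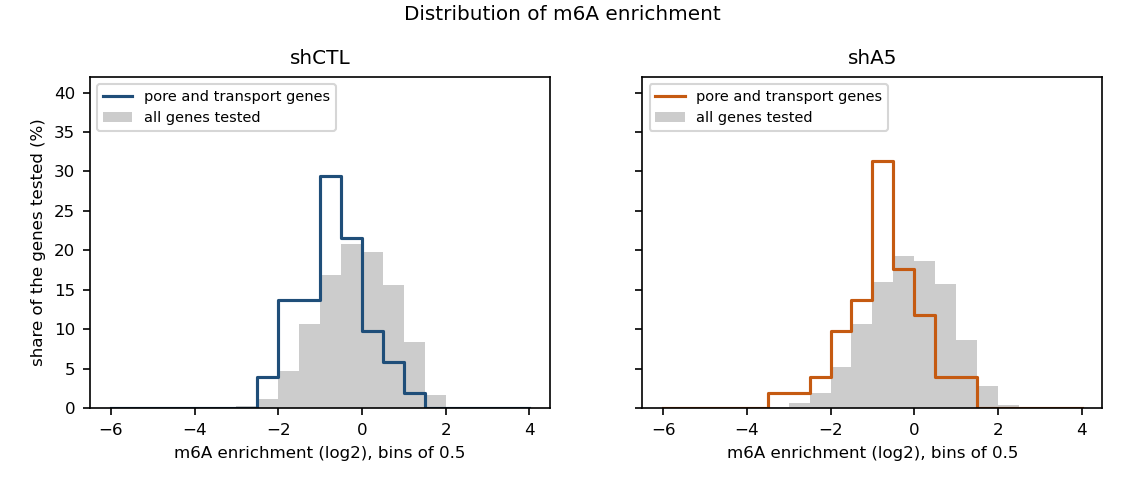
Share of genes (%) in each bin of 0.5 of m6A enrichment (log2), for all 5320 genes tested (grey bars) and the 51 nuclear pore and transport genes (line), in shCTL (left) and shA5 (right). The line lies to the left of the bars, with medians of -0.65 and -0.63 beside -0.11 and -0.10.

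Of the 12 roles, the rings of the pore scaffold had the lowest medians. In the outer ring (Y complex), 4 of 4 genes tested were depleted in each population, and in the inner ring 3 of 3. Of all genes, 30.3% were depleted in shCTL and 31.7% in shA5. The set holds 7 outer ring and 5 inner ring genes, and those not tested were under the count minimum. Their medians were -1.63 in shCTL and -1.49 in shA5 for the outer ring, and -1.71 and -1.87 for the inner ring. NUP155, which links the inner ring to the membrane and the scaffold, had 302 input and 102 IP counts in shCTL, and 129 and 47 in shA5. The IP value was below the input in each population, with enrichments of -2.36 (-2.72 to -2.06) in shCTL and -2.68 (-3.23 to -2.23) in shA5. In shCTL NUP155 was the lowest of the 51 genes above the count minimum. NUP205, a large inner ring scaffold protein, was the best counted of the ring genes: 3543 input and 1904 IP counts in shCTL, and 2095 and 1377 in shA5. That is -1.71 (-1.79 to -1.63) and -1.87 (-1.97 to -1.77). Its paralog NUP188 was close to it, at -1.46 and -1.57, from 2520, 1615, 1587 and 1283 counts in the same order of libraries.

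Among the outer ring genes, NUP43, a WD repeat subunit, had 144 input and 63 IP counts in shCTL and 109 and 61 in shA5, for enrichments of -1.98 and -2.07. NUP133, which anchors the Y complex to membranes and to its neighbours, had 1075 and 531 counts in shCTL and 622 and 391 in shA5, or -1.83 and -1.93. NUP160 had -1.08 and -1.05. NUP85 had 96, 62, 61 and 79 counts, and its enrichments of -1.42 and -0.88 had intervals that overlap (-1.93 to -0.97 and -1.39 to -0.38). Most of these counts (80, 56, 46 and 62) were on a transcript with 9 exons. The 971 bases of that transcript not shared with its other listed transcripts are all in the 5′ UTR.

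Transmembrane nucleoporins hold the ring in the envelope, and these genes spread widely. NDC1, a membrane anchor, was depleted (389 and 207 counts in shCTL, 204 and 153 in shA5, for -1.72 and -1.67), as was NUP210 (-0.97 and -0.83). POM121 was near 0 in shCTL with 0.13 (-0.09 to 0.36), from 241 input and 466 IP counts, and had 0.41 (0.15 to 0.68) in shA5, from 156 and 498. POM121C, its near-identical copy, had -0.29 and 0.04. These copies share 50-base stretches over 66.1% of POM121 and 63.4% of POM121C with other genes, each other included, so how reads were split between them is uncertain.

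NUP62, the FG repeat protein of the central channel, was the only gene of its group of 4 to pass the minimum. It had 417, 539, 338 and 552 counts (shCTL input, shCTL IP, shA5 input, shA5 IP) and enrichments of -0.45 and -0.55, neither past 1.5-fold. It shares 15.9% of its 50-base stretches with other genes.

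On the cytoplasmic side, RANBP2, the large filament protein with SUMO ligase activity, stood above 0 in each population. It had 1816 input and 4012 IP counts in shCTL and 1066 and 2973 in shA5, for 0.33 (0.25 to 0.41) and 0.22 (0.11 to 0.32), short of 1.5-fold. It shares 50-base stretches over 27.4% of its transcript with its RGPD copies and others. GLE1, the activator of the mRNA export helicase at the filaments, was depleted at -0.96 and -1.50 from 114, 102, 86 and 72 counts. NUP88, also depleted (-1.03 and -1.08), overlaps the opposite-strand gene RABEP1 over 39.8% of its exons, and whether the counting used strand is not given in the sources used here. AAAS had -0.24 and -0.41 with intervals that held 0. NUP42, the GLE1 partner at the pore, was past 1.5-fold in shA5 alone (-0.38 and -0.73), and an opposite-strand RNA overlaps 36% of its exons.

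In the basket, TPR, its main scaffold, was depleted at -0.66 and -0.71 from 2247 and 2512 counts in shCTL and 1022 and 1495 in shA5. NUP50, a mobile basket protein that binds importin alpha, was on the other side of 0 with 0.20 (0.02 to 0.37) and 0.32 (0.11 to 0.53), and 12.3% of its 50-base stretches are also in a processed pseudogene.

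**Figure D2:**
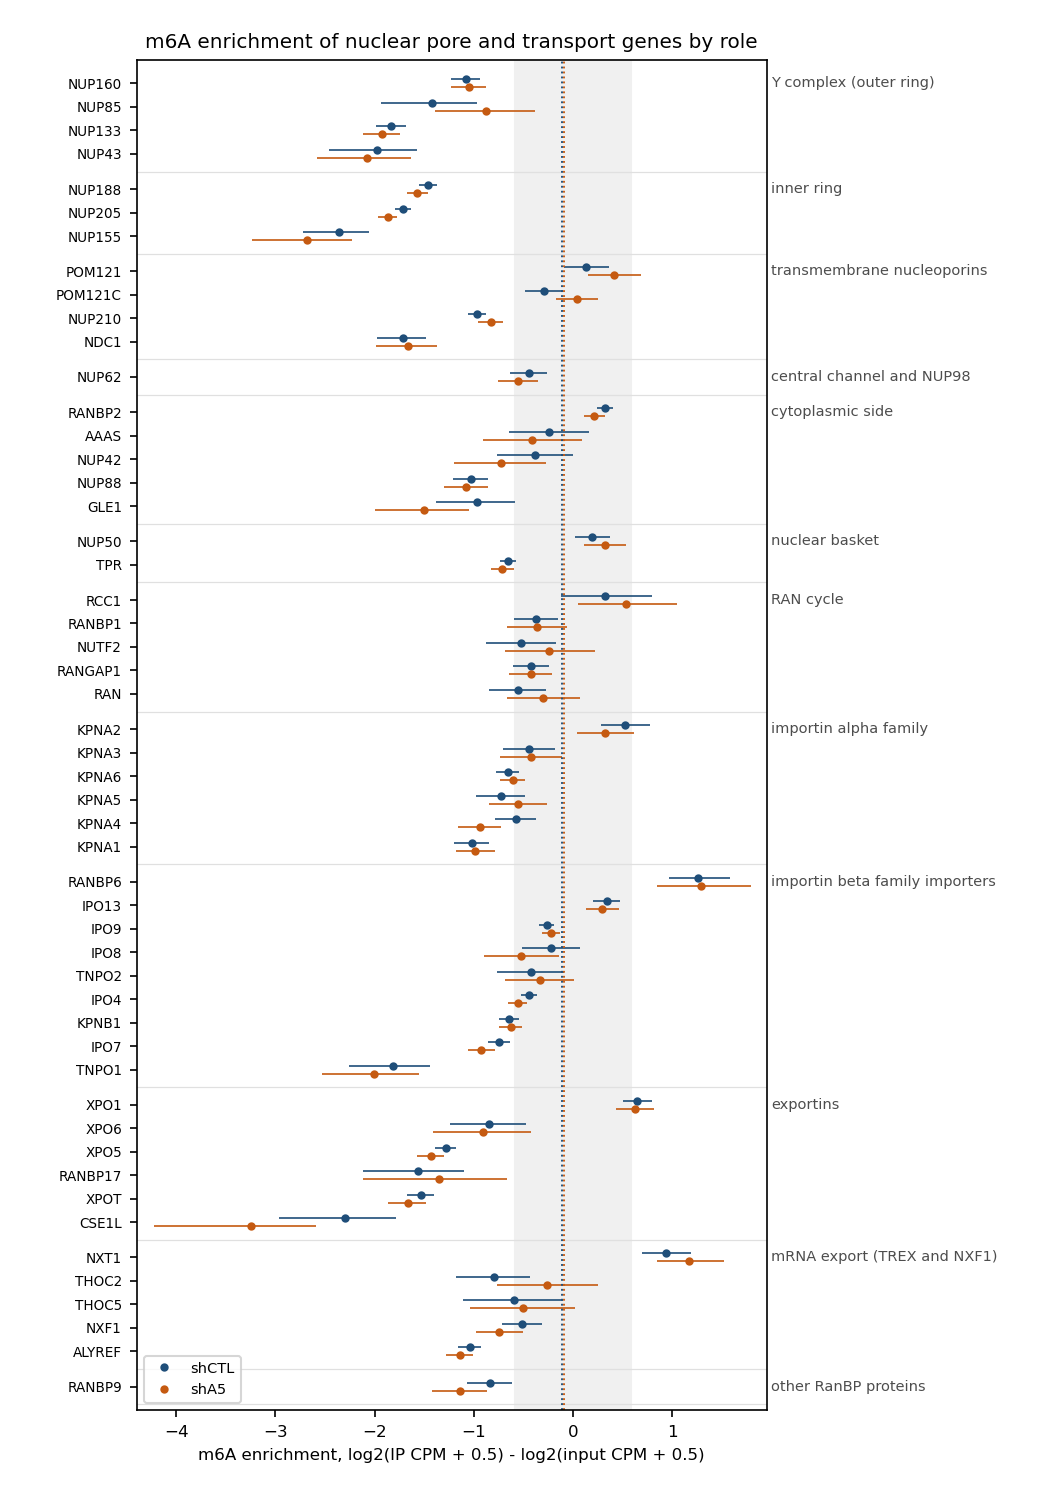
m6A enrichment (log2 of IP over input) of the 51 genes by role, in shCTL (blue) and shA5 (orange), with exact 95% counting intervals as bars. The grey band marks less than 1.5-fold and the dotted lines the medians of all genes tested. The outer and inner ring genes all lie to the left of the band, and RANBP6, NXT1 and XPO1 to the right.

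Of the 5 genes of the RAN cycle 0 passed 1.5-fold in either direction in either population, where 30.3% and 31.7% of all genes were depleted. Their medians of -0.42 and -0.30 were below those of all genes. RAN itself, the GTPase, had 185 and 221 counts in shCTL and 96 and 187 in shA5, or -0.56 (-0.85 to -0.27) and -0.30 (-0.66 to 0.07). Processed pseudogenes hold part of its sequence, and 16.8% of its 50-base stretches are shared. RCC1, its chromatin-bound exchange factor, was the only gene of the group above 0, with 60, 133, 45 and 157 counts and enrichments of 0.33 (-0.12 to 0.80) and 0.53 (0.05 to 1.05). Only 121 bases of its main transcript, all in the 5′ UTR, are not shared with its other listed transcripts. RANGAP1 and RANBP1, which end the cycle by GTP hydrolysis, had -0.42 and -0.37 in shCTL and -0.42 and -0.36 in shA5. RANBP1 shares 20.5% of its 50-base stretches with other genes, mostly a pseudogene. NUTF2, the carrier that returns RAN to the nucleus, had -0.52 and -0.24 with intervals that overlap.

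Among the importin alpha adaptors, which bind the classical import signal, KPNA2 stood apart from its relatives. It had 193 input and 490 IP counts in shCTL and 136 and 408 in shA5, and its enrichments of 0.52 (0.28 to 0.77) and 0.32 (0.04 to 0.61) were the only ones of the 6 above 0. KPNA1 was the lowest at -1.02 and -0.98, from 566, 491, 391 and 474 counts. Of the 6, 3 were depleted in each population, where 30.3% and 31.7% of all genes were. KPNA2 shares 22.1% of its 50-base stretches with other genes, and KPNA1 shares 18.8% with a transcript that overlaps it on the opposite strand.

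Import receptors of the importin beta family ran from -1.82 to 1.26 in shCTL and from -2.01 to 1.29 in shA5. RANBP6, a close relative of IPO5 encoded by a gene without introns, was the most enriched of the 51 genes above the count minimum. It had 111 input and 471 IP counts in shCTL, and 46 and 273 in shA5, so the IP exceeded the input in each population. Enrichments were 1.26 (0.97 to 1.58) in shCTL, or 2.39-fold, and 1.29 (0.85 to 1.79) in shA5, or 2.45-fold.

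TNPO1, the receptor for PY-type signals, was at the other end with 155, 76, 99 and 58 counts and values of -1.82 (-2.26 to -1.44) and -2.01 (-2.53 to -1.55). Its paralog TNPO2 had -0.42 and -0.34, and the intervals of the paralogs did not overlap in either population. KPNB1, the importin beta that pairs with importin alpha, had 1503 and 1690 counts in shCTL and 921 and 1428 in shA5, for -0.65 and -0.63. IPO13 was above 0 with 0.34 and 0.29, and IPO9, a histone importer, just below it with -0.27 and -0.22. IPO4 had -0.44 and -0.56, but a readthrough gene on the same strand covers 95% of its exons.

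Of the exportins, 5 of 6 were depleted in each population, where 30.3% and 31.7% of all genes were. XPO1 was enriched in both, where 22.5% and 24.3% of all genes were enriched in shCTL and shA5. XPO1, the general export receptor for leucine-rich signals, had 543 input and 1501 IP counts in shCTL and 283 and 1048 in shA5. Its enrichments were 0.65 (0.51 to 0.79) and 0.62 (0.43 to 0.82), just past 1.5-fold. XPO5, which carries microRNA precursors, had -1.28 and -1.43, and XPOT, which carries tRNA, had -1.53 and -1.67. XPOT shares 10.7% of its 50-base stretches with other genes.

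CSE1L, which returns importin alpha to the cytoplasm, had 99 and 34 counts in shCTL and 73 and 17 in shA5. Its enrichments of -2.29 (-2.97 to -1.78) and -3.25 (-4.22 to -2.59) made it the lowest gene of the set in shA5. Only 168 bases of its main transcript, all coding, are not shared with another listed transcript of the gene, and how shared reads were counted is not given in the sources used here. RANBP17, a relative of XPO7, was depleted at -1.57 and -1.35 from 93, 54, 36 and 33 counts.

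Of the mRNA export factors, 3 of 5 were depleted in shCTL and 2 of 5 in shA5, beside 30.3% and 31.7% of all genes. Enriched in both was 1, where 22.5% and 24.3% of all genes were enriched in shCTL and shA5. NXT1, the small partner of NXF1, had 177 and 598 counts in shCTL and 88 and 477 in shA5, for 0.93 (0.69 to 1.19) and 1.17 (0.84 to 1.52). NXF1, the receptor it pairs with, was lower in the IP, with 372 and 459 counts in shCTL and 256 and 367 in shA5, or -0.51 (-0.71 to -0.31) and -0.74 (-0.98 to -0.51). The partners thus lay on opposite sides of 0 in each population with intervals far apart. ALYREF, the adaptor that hands mRNA to them, was depleted at -1.04 and -1.14 from 1364, 1166, 841 and 915 counts. Of the THO subunits, THOC2 and THOC5 were past 1.5-fold in shCTL alone, with -0.80 and -0.60 there and -0.26 and -0.51 in shA5. An opposite-strand pseudogene overlaps 19% of the exons of THOC2.

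**Figure D3:**
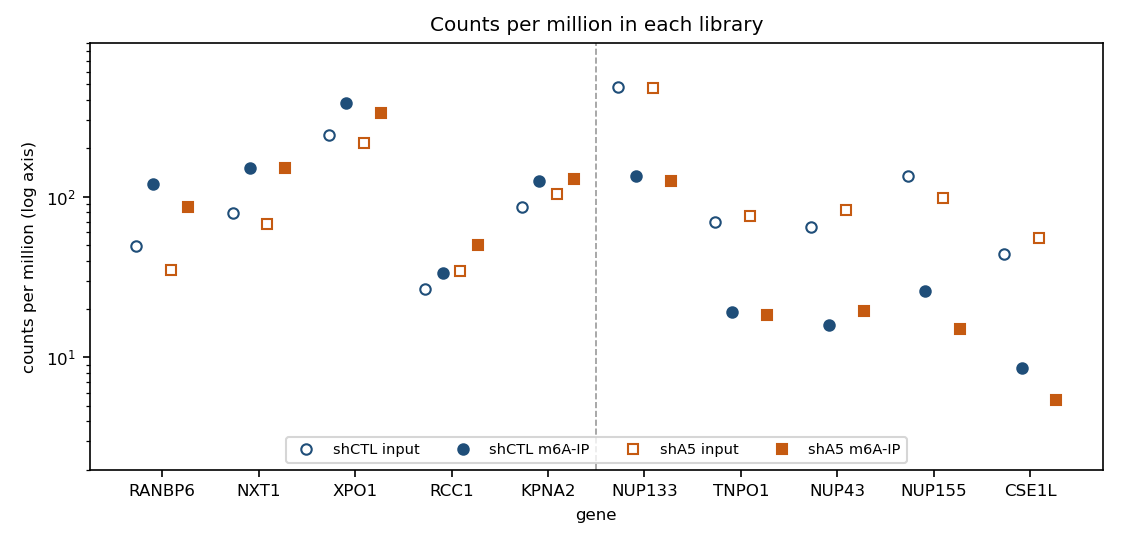
CPM (counts scaled to the library total, log axis) in each of the 4 libraries for the genes with the 5 highest (left of the dashed line) and the 5 lowest m6A enrichments; open symbols are inputs and filled symbols IPs, circles shCTL and squares shA5. Filled symbols lie above open ones on the left and below them on the right in each population.

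Input RNA gives a level for each gene, which also depends on how reads shared by transcripts were counted. Per kb of the main transcript, ALYREF was the highest, with input levels of 556 CPM per kb in shCTL and 585 in shA5. IPO4 followed with 284 and 298, NUP205 with 253 and 255 and NUP188 with 198 and 213. KPNB1 had 111 and 116 and XPO1 48.6 and 43.3. RCC1 with 11.1 and 14.2, TNPO1 with 8.16 and 8.89, RANBP6 with 10.8 and 7.63 and THOC5 with 6.05 and 8.06 were at the low end, and only 121 bases of the main transcript of RCC1 are unique among its listed transcripts. The genes above 100 CPM per kb in the shCTL input all had enrichments below 0, and the highest of the enriched genes was NXT1 with 74.5. The input count enters both the level and the enrichment, and 42 of the 51 genes were below 0 in shCTL whatever their level. At low levels both ends of the range were found: RANBP6 and TNPO1 were near each other in level and farthest apart in enrichment among the importers. In such bulk RNA, less RNA per cell and fewer cells with the transcript cannot be told apart.

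Few genes of the set passed the threshold for a change of m6A enrichment between the populations. None of the 51 genes (0) was higher in shA5 by 1.5-fold, where 5.38% of all genes were, and 1 was lower, where 5.09% of all genes were. Each library was scaled to its own total, so a rise of m6A shared by most transcripts would not show in these changes. The study reports higher abundance and wider coverage of m6A peaks in the knockdown cells, which is a different measure. The median change, shA5 minus shCTL, was -0.05 (-0.11 to 0.03), and that of all genes tested was 0.00. Values were above 0 for 23 genes and below for 28, and for 47 of the 51 the counting interval held 0.

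The gene past 1.5-fold was CSE1L, with a change of -0.96 whose interval reached from -2.05 to 0.00 and rests on 17 counts in the shA5 IP. The next were GLE1 with -0.53 (-1.17 to 0.08), KPNA4 with -0.36 (-0.67 to -0.06), NUP42 with -0.35 and NUP155 with -0.32. Among them the interval of KPNA4, an importin alpha, lay below 0; it had 355 and 418 counts in shCTL and 306 and 382 in shA5. Of genes outside this order, NUP205 with -0.16 (-0.28 to -0.03) and IPO7 with -0.18 (-0.35 to -0.01) also had intervals below 0, small in size, and IPO7 shares 12.4% of its 50-base stretches with other genes. Intervals below 0 were thus found for 3 of 51 genes and above 0 for 1, where 8.06% and 8.18% of all genes had them.

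The largest values in the other direction were NUP85 with 0.54 (-0.15 to 1.26), THOC2 with 0.54 (-0.09 to 1.18) and POM121C with 0.33 (0.04 to 0.61). NUTF2 and POM121 followed with 0.28 each. POM121C, with 388, 559, 260 and 640 counts, was the only gene whose interval lay above 0, and it shares most of its sequence as described. XPO1 (-0.02), RANBP6 (0.03) and NXT1 (0.23) had intervals that held 0.

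Input RNA also stayed within 1.5-fold between the populations for 50 of the 51 genes. None (0) was higher in shA5 by that much, where 3.44% of all genes were, and 1 was lower, where 6.43% of all genes were. The median change was 0.06 (-0.00 to 0.12), and that of all genes tested was -0.02. RANBP17 was the gene past the threshold, with 93 input counts in shCTL, 36 in shA5 and a change of -0.59 (-1.20 to -0.03). It fell short of 1.5-fold with DESeq2 size factors, with a pseudocount of 2 CPM and with the junction trend removed, and after thinning to the smallest total it was under the count minimum, so that 0 genes passed in each case.

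Intervals lay below 0 for 6 genes and above 0 for another 6, each 11.8% of the 51, where 15.6% and 12.9% of all genes had such intervals. THOC2 had -0.52 (-1.02 to -0.04), NUP155 -0.45 (-0.77 to -0.15), TPR -0.37 (-0.47 to -0.26), XPOT -0.32 (-0.47 to -0.17) and NUP210 -0.29 (-0.40 to -0.18). RANBP6 had -0.49 (-1.03 to 0.01), from 111 and 46 counts. TPR is the best counted of these, with an input level of 1004 CPM in shCTL and 779 CPM in shA5.

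On the other side, KPNA4 had 0.56 (0.33 to 0.78), TNPO2 0.48 (0.10 to 0.86), NUP62 0.47 (0.26 to 0.68), KPNA6 0.27 (0.14 to 0.40), KPNA1 0.24 (0.05 to 0.43) and NUP188 0.10 (0.01 to 0.20). In the importin alpha family, 5 of 6 genes had values above 0, with a median of 0.25 (-0.01 to 0.56), and KPNA5 had -0.01. In all, 32 of the 51 genes of the set and 2527 of the 5320 genes tested had values above 0. THOC5 with 0.41 and NUP43 with 0.37 had intervals that held 0. Since the change of enrichment and the change of input RNA share the input libraries, the values are given gene by gene and no relation between them was computed.

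**Figure D4:**
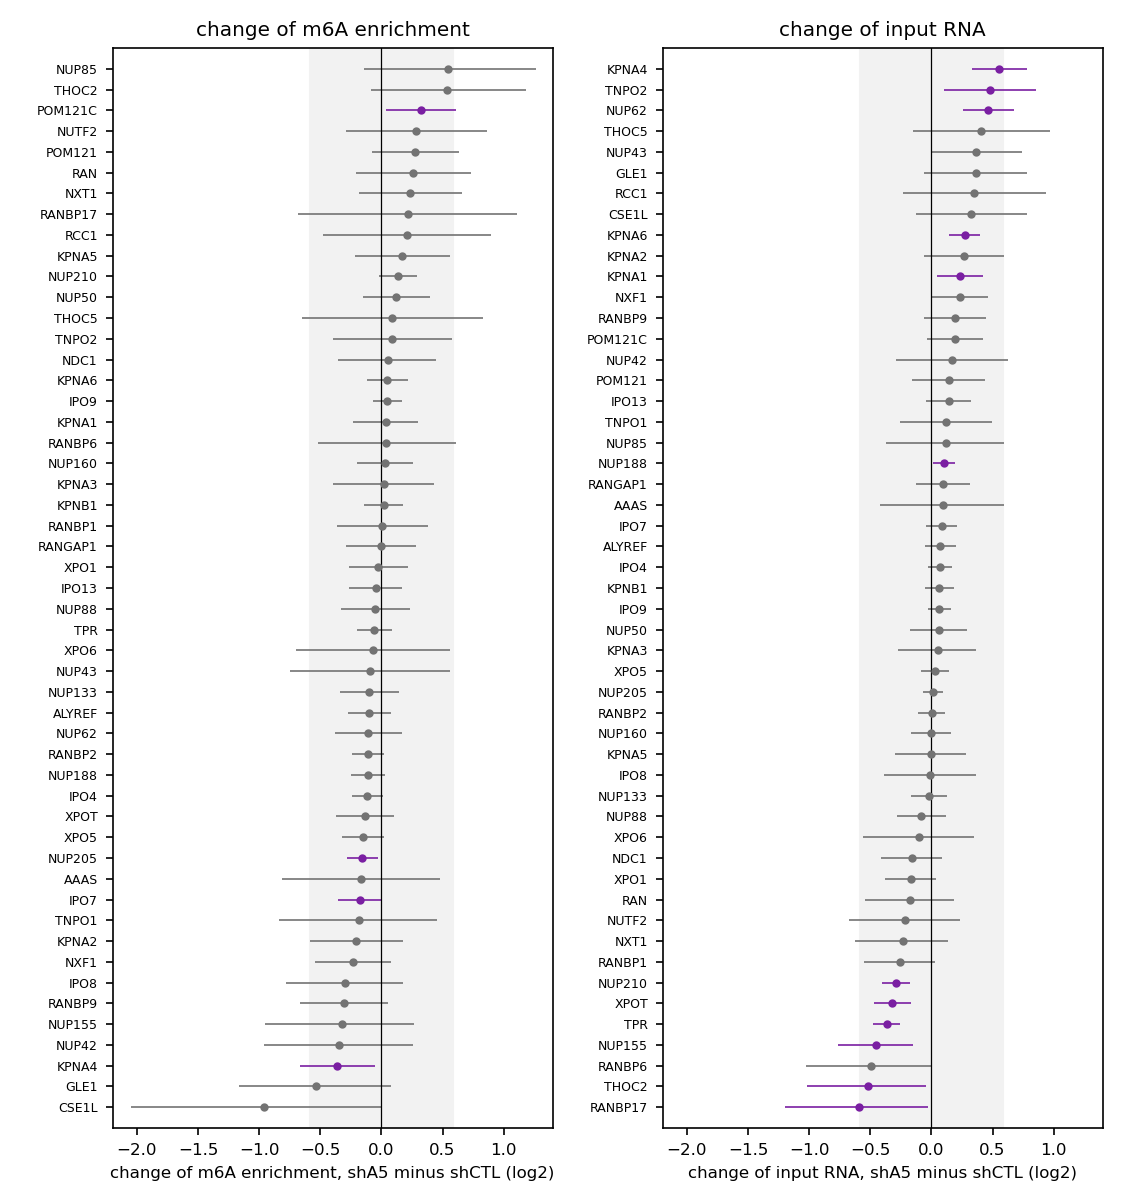
Change of m6A enrichment (left) and of input RNA (right), shA5 minus shCTL (log2), for the 51 genes in order of value, with exact 95% counting intervals as bars. The grey band marks less than 1.5-fold; purple marks intervals that exclude 0, which are 4 on the left and 12 on the right.

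The set differed from all genes in the median of several transcript features that the rule did not use, with a wide range from 1 exon (RANBP6) to 51 (TPR). Their main transcripts had a median of 17 exons, where all genes tested had 9, and 3.92 exon junctions per kb, where all genes had 2.37. Median GC content was 45.0%, where that of all genes was 51.4%. Median length was 4600 bases, beside 3590, and 46.9% of the bases were more than 150 bases from a junction, beside 62.5%. RRACH sites per kb were alike (13.5 and 13.3), and GGAC sites were fewer (3.15 and 3.99 per kb).

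Across the 51 genes, enrichment was lower where junctions were denser, with Spearman's rho of -0.29 in shCTL and -0.36 in shA5, and -0.29 and -0.30 across 5292 genes tested that have a transcript model. These correlations are across genes, which share libraries and are not replicates, and no p was computed. For genes with 1 listed transcript rho was -0.51 and -0.51 over 21 genes of the set and -0.46 and -0.46 over 2826 genes in all. The share of bases more than 150 bases from a junction had rho of 0.24 and 0.30 over the 51 genes and 0.24 and 0.25 over the 5292. With 1 listed transcript these were 0.53 and 0.52 over the 21 genes and 0.41 and 0.40 over the 2826. Over all genes, GC content (0.36 and 0.39) and GGAC per kb (0.32 and 0.34) had rho values larger in size than junction density. In the 51 genes these were 0.25 and 0.27 for GC content and 0.09 and 0.15 for GGAC, and in the 21 genes with 1 listed transcript -0.09 and -0.10 for GC content and -0.23 and -0.22 for GGAC. Over the 2826 genes with 1 listed transcript they were 0.37 and 0.40 for GC content and 0.32 and 0.33 for GGAC. There both were smaller in size than the rho of junction density. RANBP6 with 0 junctions and NXT1 with 1 junction were the enriched genes at the sparse end. XPO1, with 25 exons and 4.81 junctions per kb, was enriched at the dense end, and NUP62, with 2 exons, was not enriched.

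Within quartiles of junction density the set was also lower than all genes in 3 of 4. In the quartile with the densest junctions, 23 genes of the set had medians of -0.96 and -0.91, where the 1323 genes of that quartile had -0.40 and -0.43. In the next quartile 16 genes had -0.62 and -0.57, beside -0.18 and -0.16, and in the one after it 9 genes had -0.58 and -0.56, beside -0.12 and -0.05. In the sparsest quartile lay RANBP6, NXT1 and NUP62. For GC content, in the lowest quartile 23 genes had medians of -0.80 and -0.94, beside -0.56 and -0.65, and in the quartile just above the middle 13 genes had -0.45 and -0.41, beside 0.05 and 0.07.

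**Figure D5:**
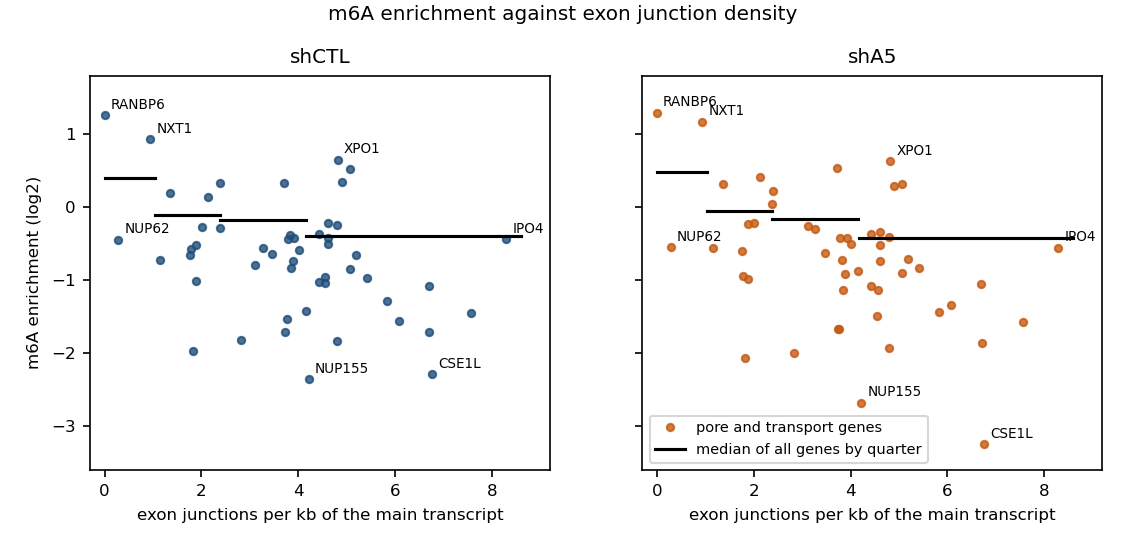
m6A enrichment (log2) of the 51 genes (points) against the exon junctions per kb of the main transcript, in shCTL (left) and shA5 (right). Black lines are the medians of all genes tested in each quartile of junction density, the last cut off at the edge of the plot. Most points lie under the lines, with RANBP6 and NXT1 above them at the left and XPO1 at the right.

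Transcripts of a single gene could also lie far apart. Of the 51 genes, 21 had 1 listed transcript, and 10 had more than 1 with a mean of at least 20 counts. XPO1 had 504 input and 1473 IP counts in shCTL on ENST00000401558 and 39 and 28 on ENST00000404992, so the first was enriched at 0.73 (0.58 to 0.88) and the second depleted at -1.24 (-2.05 to -0.56). In shA5 they had 0.79 and -2.10. The transcripts have 25 exons each, with last exons of 1118 and 629 bases.

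RANGAP1 had 3 such transcripts: ENST00000356244 with 0.01 in shCTL and 0.18 in shA5, ENST00000405486 with -1.15 and -1.63, and ENST00000455915 with -2.10 and -1.61. Their last exons have 1894, 1062 and 1058 bases. RAN had -0.15 and -0.10 on ENST00000392369 and -2.13 and -1.67 on ENST00000543796, the latter from 56, 21, 20 and 14 counts. THOC2 and TNPO2 also had transcripts on different sides of the threshold, and the longer last exon was on the higher transcript in each. RAN, TNPO1 and POM121C went the other way in both populations, the lower transcript having the longer last exon (1797 bases beside 400, 5680 beside 243 and 2108 beside 98). In each population the intervals of both transcripts overlapped in TNPO1, with -2.14 and -1.84 in shA5, and in POM121C, with 0.03 and 0.07 there. Over the 10 genes, the transcript with the longest last exon had the highest enrichment in 7 in shCTL and 5 in shA5, near-ties included. In NUP62 the order turned between populations, from -0.20 and -1.01 in shCTL to -0.64 and -0.44 in shA5, and IPO13 had transcripts at 0.35 and 0.04 in shCTL and at 0.32 and -0.70 in shA5. The values rest on how reads shared by transcripts were assigned.

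Shared sequence could be avoided for part of the set. For the 23 genes of the set with under 10% of their sequence shared with other genes and no exon overlap, 12 were depleted in each population and 2 enriched, NXT1 and RANBP6, where of all genes tested 30.3% and 31.7% were depleted and 22.5% and 24.3% enriched. Their medians were -0.60 and -0.74, beside -0.11 and -0.10 of all genes, which were not selected in this way. This selection was made after the values were known.

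The 23 genes below the minimum had 1 to 152 counts in all libraries together, and they are left out of the counts above. They include genes at the core of the machinery: NUP98, the FG protein that also acts on chromatin, had 3, 6, 1 and 1 counts, NUP153 of the basket had 2, 0, 1 and 2, and IPO5, the relative of RANBP6, had 2, 3, 3 and 7. TNPO3, which imports splicing factors, had 1, 3, 6 and 1, NUP93 of the inner ring 9, 0, 4 and 3, and NUP107 of the outer ring 16, 9, 4 and 8. NUP58, of the channel, was the best counted with 87, 14, 36 and 15. In 9 of the 23 genes the total was 20 counts or fewer. Their main transcripts were unique among the listed transcripts of the gene over a median of 47.0% of their bases, beside 81.0% in the 51 genes above the minimum, and that of NUP98 had 0 such bases. In contrast NUP153, NUP35, NUP37, KPNA7, THOC3, THOC6, XPO4 and XPO7 have 1 listed transcript each, so it is 100% unique by this measure. How reads shared by transcripts were counted is not given in the sources used here, and its part in these low counts was not tested, so they do not show that the genes are barely expressed. A count of 3, the limit used for a listed value, was worth 1.34 CPM in the shCTL input and 2.29 CPM in the shA5 input. Intervals lay wholly past 1.5-fold depletion for 8 of these genes in shCTL and 6 in shA5, and for 5, NUP58, IPO11, THOC3, THOC7 and XPO7, in both, with IPO11 at -3.06 (-4.64 to -2.24) and -3.08 (-5.53 to -1.92) and NUP58 at -3.28 (-4.38 to -2.63) and -2.41 (-3.50 to -1.62). Of the 9591 genes under the minimum in all, which are not matched to these in count, 10% had such intervals in shCTL, 8.28% in shA5 and 4.15% in both. None (0) of the 23 had an interval wholly past 1.5-fold enrichment in either population, where 1.75% of the 9591 had. These 5 were singled out after their values were seen. The others were KPNA7, NUP214, NUP35, NUP37, NUP54, NXT2, RANBP3, RANBP10, SEH1L, THOC1, THOC6 and XPO4.

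Related genes that the rule leaves out were counted for comparison. Of 35 other transport genes 9 passed the minimum. In shCTL 1 was enriched and 3 were depleted, and in shA5 1 and 4, where 30.3% and 31.7% of all genes were depleted and 22.5% and 24.3% enriched. Their median enrichments were -0.57 (-1.36 to 0.30) in shCTL and -0.52 (-1.47 to 0.26) in shA5. The 51 genes of the set had -0.65 and -0.63, and all genes -0.11 and -0.10. Their input RNA had a median change of 0.18 (0.05 to 0.63), above 0 in 8 of 9, where 2527 of the 5320 genes tested were, and past 1.5-fold in 2, AHCTF1 with 0.66 and DDX39B with 0.63, where 3.44% of all genes were. PHAX, the adaptor for snRNA export, had 0.77 and 0.98 and the RNA helicase DDX19A 0.30 and 0.26, while NCBP1 of the cap-binding complex had -1.36 and -1.86 and the TREX partner CHTOP -1.91 and -1.47. Of 16 nuclear lamina and envelope genes 8 passed, with 1 enriched and 3 depleted in shCTL and 2 and 4 in shA5, beside the same shares of all genes. LEMD3 of the inner nuclear membrane had 1.60 and 1.74 and TOR1A 0.58 and 1.25, and EMD (emerin) had -1.82 and -1.56 and TOR1AIP2 -1.40 and -1.72.

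Library totals lay between 1311390 counts (shA5 input) and 3944402 (shCTL IP). ALKBH5, the targeted gene, had 486 input counts in shCTL and 145 in shA5, a change of -0.97 (-1.25 to -0.70). Of 5 genes listed as marks of HEK293 cells, NEFL and LIN28B passed the minimum, NEFM had 2 to 8 counts per library, and PAX2 and SALL2 had 0 or 1. Of 8 marker genes of other cell types PTPRC, HBB, ALB and GFAP had no count, CD34, LYZ and PECAM1 had 0 to 14 per library, and COL1A1 had 150 to 578, with a change of its input RNA of -0.65. Any part of this in the values above was not tested.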

How the data were processed

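m6A-seq libraries of polyA RNA from X-ray-treated HEK293T cells (1 input and 1 m6A-IP each for shCTL and shA5) were used. The authors deposited whole-number read counts per Ensembl transcript; fastp, HISAT2 (on hg38) and SAMtools were used upstream, and the submitters' processing notes give fastp 0.23.2, SAMtools 1.9 and bcl2fastq 2.0. StringTie is named for quantification, but the counting of reads shared by transcripts is not given in the sources used here.

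Counts were summed per gene symbol and divided by the library total (2237819, 3944402, 1311390 and 3148119 counts for shCTL input, shCTL IP, shA5 input and shA5 IP). Ratios used log2(CPM + 0.5) for genes averaging 50 counts or more. Changes of 1.5-fold were called, and no test was made with 1 library per group. Exact conditional 95% intervals were computed for single genes, and order-statistic intervals for medians. Transcript features came from the listed transcript with the most counts in Gencode v44, which held 5292 of the genes tested and lacked 28. Steps were tested on simulated counts. The alternatives were TMM (edgeR 4.0.16) and DESeq2 1.42.0 factors within inputs and within IPs, other pseudocounts, minimums and folds, the main transcript alone, thinning to the smallest total, and the removal of GC and junction trends.

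Named were the 5 highest and lowest enrichments, the 5 largest changes of enrichment and of input in each direction, the highest and lowest gene of each role, the core factors XPO1, RAN, RCC1, KPNB1, NXF1, ALYREF, TPR, NUP98 and RANBP2, and genes under the minimum with their counts; genes named beyond this were chosen after their values were seen. The gene set, role lists and named-gene rule were chosen with earlier results of these data known. Python 3.11.15 (scipy 1.17.1, statsmodels 0.14.6) and R 4.3.3 were used. The site of 1 further gene that this choice of examples selects is not reported here. Peak calls were not analysed here.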

Additional observations from a re-analysis of the deposited data

How the results depend on the processing

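The 12 counts and medians of the report were recomputed under the alternatives (the medians not under another fold). Of these values 112 were close to the reported ones, and 28, all counts, moved. The median change of m6A enrichment, -0.05, took the other sign with the transcript of most counts alone (0.01) and with the GC trend removed (0.00). For 34 named genes 607 values were close and 5 moved: RCC1 (0.92) and RANBP2 (0.05) in the change of enrichment after thinning, and, with the transcript of most counts alone, NUP62 (-0.44) in that change and THOC2 (-0.09) and TNPO2 (0.19) in mean enrichment. Of the values of these genes 21 took the other sign, none of them from a value past 1.5-fold. In what follows the share of all genes stands in parentheses. With a 2-fold threshold 16 genes were depleted in shCTL (16.9%) and 16 in shA5 (18.4%), 1 was enriched in shCTL (10.1%), 0 had a lower m6A enrichment in shA5 (0.771%) and 0 had less input RNA there (1.15%). With a mean of at least 10 counts, of 60 genes 2 had a higher and 2 a lower m6A enrichment in shA5 and 2 less input RNA, beside 12.6%, 12.99% and 12.5% of all genes; with at least 200 counts, 17 of 34 were depleted in shCTL (21.7%), 0 had a lower enrichment (1.08%) and 0 less input RNA (3.33%). With no filter, 6 of 70 were enriched in shA5 (22.9%), 7 of 72 had a higher and 7 a lower enrichment there (18.9% and 18.3%), and 4 of 68 had more and 4 less input RNA (12.7% and 17.5%). With the transcript of most counts alone, 1 had a higher enrichment (5.58%), 2 more input RNA (3.44%) and 2 less (7.04%). Thinned to the smallest total, of 44 genes 1 had a higher enrichment (4.54%), 1 more input RNA (2.73%) and 0 less (4.88%), RANBP17 being under the count minimum. With DESeq2 size factors, with a pseudocount of 2 CPM, and with the trend on junction density removed, 0 had less input RNA (6.37%, 5.85% and 6.29%); the gene lost was RANBP17, at -0.59 just past the threshold of -0.58. With the trend on GC content removed, 5 were enriched in shCTL (20.9%), 6 in shA5 (22.4%) and 1 had a higher enrichment in shA5 (5.25%). Removal of the GC and junction trends was chosen after the data were seen. The counts of genes changed in either direction are small throughout, and the cause of each move was not tested.

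No paired analysis was possible because no group holds a second library, and for the same reason no replicate was left out. The counts of the smallest library of each gene limit its change between populations: for CSE1L that is the shA5 IP with 17.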
